A study of Mus musculus with 6 samples.

Results

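The genes described here are the adult globins of the mouse and enzymes that make heme, 9 genes chosen by symbol: Hba-a1, Hba-a2, Hbb-bs, Hbb-bt, Alas2, Alad, Urod, Cpox and Fech. All 9 were among the 30803 rows of each deposited table. All 9 were also among the 12295 genes tested, those whose 6 libraries averaged 1 FPKM or more. FPKM is fragments scaled to transcript length and library total, so levels of different genes can be set side by side. The unit was inferred from the values, and read depth is unknown.

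The libraries were poly(A) RNA-seq of bone marrow cells labelled hematopoietic stem cells, the cells that renew the blood. The cells came from wild-type mice aged 5 months, kept at homeostasis as controls, and were sorted by MHC class II, the surface molecule that presents peptides to helper T cells. The MHCII-lo and MHCII-hi groups had 3 libraries each, and all values below are over n = 3 libraries per group. The labels name no strain, no sort markers beyond MHC class II, and no separate animals for the libraries. The p-values therefore rest on the spread among these libraries alone, and that spread may be technical.

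Hemoglobin is a tetramer of alpha and beta globin chains, each holding a heme group. In the mouse the adult alpha chains come from a pair of near-identical genes and the adult beta chains from another pair. Heme is built in a chain of enzymatic steps that starts and ends in mitochondria. Red cell precursors run the first step with Alas2, and other cells with Alas1. In red cell development, globin and heme synthesis rise together, since free globin chains and free heme are both toxic.

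The labelled cell type was checked on its markers. Of 12 stem cell markers, 7 averaged 1 FPKM or more. The other 5, named after their values were seen, were Slamf1, Procr, Mecom, Fgd5 and Hoxb5, all of them genes used to define stem cells, and Hoxb5 was listed at 0 in 5 libraries. The cells are therefore called here by their labels only. All 23 erythroid markers, genes of the red cell membrane, its carriers and receptors, averaged 1 FPKM or more. Summed over the list, erythroid markers stood at 685 to 689 FPKM in the MHCII-lo libraries and 458 to 464 FPKM in the MHCII-hi libraries. B cell markers, 11 genes, summed to 399 to 458 FPKM in MHCII-lo and 8021 to 8165 FPKM in MHCII-hi. Neutrophil markers, 12 genes, summed to 16554 to 16634 and 21744 to 22028 FPKM. Of these genes, however, 7 rose, 4 fell and 1 did not pass, beside 27.2% of all tested genes higher and 40.5% lower. The 4 that fell, named after their values were seen, were the granule genes Mpo, Elane, Prtn3 and Ctsg. The part of these other cells in the results below was not tested. In bulk RNA, fewer cells of a type and less RNA per cell cannot be told apart.

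The globin copies are shown first by their sequence, because their likeness decides how well their levels can be separated. The Hba-a1 and Hba-a2 messenger RNAs of GENCODE M21 were 99.8% identical over 538 aligned bases. Of all stretches of 100 bases in the Hba-a2 transcript, 74.5% also occurred in Hba-a1. Hbb-bs and Hbb-bt were 92.7% identical over 626 aligned bases, and 62.6% of the 100-base stretches of Hbb-bs occurred in Hbb-bt. No stretch of 50 bases was shared between an alpha and a beta gene. Levels within a pair are therefore uncertain, since the sources used here do not give how shared reads were divided. Summed alpha and summed beta levels depend on that division less, mainly through the lengths of the transcripts.

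The promoters are shown because they differ between the beta copies more than the messenger RNAs do. Their part in the levels was not tested. RefSeq promoters (GRCm38.p6) were searched for 8 of the 9 genes, all but Fech. The 250 bases before the RefSeq start are printed for Hba-a2, both beta genes and Alas2, with capitals for the motifs searched on both strands. The GATA sites, bound by GATA1, were AGATAA and TGATAA, and also AGATAG and TGATAG. The CACCC box, bound by Klf1, was CCACCC. The CCAAT box was CCAAT and the TATA box was TATAAA.
Hba-a2 (chr11:32296242-32296491, plus strand): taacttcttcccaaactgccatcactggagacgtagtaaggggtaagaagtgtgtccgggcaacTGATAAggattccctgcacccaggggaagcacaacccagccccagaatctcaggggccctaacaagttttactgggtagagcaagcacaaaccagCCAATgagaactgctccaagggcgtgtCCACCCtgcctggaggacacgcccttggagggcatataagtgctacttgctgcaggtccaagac
Hbb-bs (chr7:103827929-103828178, minus strand): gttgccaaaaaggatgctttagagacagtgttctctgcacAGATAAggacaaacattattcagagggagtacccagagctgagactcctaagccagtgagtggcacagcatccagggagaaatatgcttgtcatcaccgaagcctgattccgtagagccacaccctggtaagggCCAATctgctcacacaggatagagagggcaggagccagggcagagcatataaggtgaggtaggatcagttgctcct
Hbb-bt (chr7:103813924-103814173, minus strand): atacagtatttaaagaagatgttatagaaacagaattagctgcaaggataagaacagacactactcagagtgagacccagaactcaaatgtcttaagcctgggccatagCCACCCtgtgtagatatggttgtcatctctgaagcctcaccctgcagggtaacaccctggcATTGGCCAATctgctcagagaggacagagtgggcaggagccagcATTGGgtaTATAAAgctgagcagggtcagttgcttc
Alas2 (chrX:150547167-150547416, plus strand): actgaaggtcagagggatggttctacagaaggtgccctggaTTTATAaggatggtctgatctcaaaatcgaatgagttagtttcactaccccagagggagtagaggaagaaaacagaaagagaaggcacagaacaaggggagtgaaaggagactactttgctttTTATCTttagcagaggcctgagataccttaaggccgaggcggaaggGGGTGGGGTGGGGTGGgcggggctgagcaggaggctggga
The Hba-a1 window was identical to that of Hba-a2 over 247 aligned bases and is not repeated. The Hbb-bs and Hbb-bt windows were 71.7% identical, with 69 mismatches in 244 aligned bases, so the beta promoters differ far more than the beta messenger RNAs. The Hba-a2 window held 1 GATA site, 1 CACCC box and 1 CCAAT box. The Hbb-bs window held 1 GATA site and 1 CCAAT box. Only the exact spellings were counted, so its ccacaccc was not counted as a CACCC box. Its catataa was not counted as a TATA box. The Hbb-bt window held 1 CACCC box, 1 TATA box and 3 CCAAT boxes, and no match to the GATA letters. Its ggataa, close to the GATA spellings, was not counted, nor was the catataa of the Hba-a2 window. Differences between windows in these counts therefore depend on the spellings searched. The Alas2 window held 1 GATA site, 3 CACCC boxes that share end bases and 1 TATA box, all on the other strand. Of all 32851 promoters of this length, 26.5% held a GATA site, 28.1% a CACCC box, 33.8% a CCAAT box and 12.4% a TATA box. GENCODE M21 also has starts further upstream, with 168 bases of the Hbb-bs window, 161 of Hba-a1, 73 of Hbb-bt, 42 of Alas2 and 3 of Hba-a2 inside its gene models. The CACCC boxes of Alas2, at 40, 35 and 30 bases before the RefSeq start, lie in that part. Also inside the gene models lie the CCAAT box of Hbb-bs and the CCAAT and CACCC boxes of Hba-a1. The same holds for the TATA box of Hbb-bt and its CCAAT box nearest the start. The iron response element loop CAGTG, bound by iron regulatory proteins, was not found in the 50 bases after the RefSeq start of Alas2, which says nothing of the rest of its messenger RNA.

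The comparison asked how MHCII-hi cells differ from MHCII-lo cells in mice at steady state. Of the 9 genes, 8 were lower in MHCII-hi, 1 did not pass the test and none was higher (limma on log2(FPKM + 1), adjusted p under 0.05 over all tested genes). Over all tested genes, 40.5% were called lower and 27.2% higher, 67.8% in either direction. With median-of-ratios scaling the 4982 calls lower and 3348 higher became 4001 and 4090. The groups did not overlap for the same 8 genes, all lower, against 43.3% of all tested genes lower without overlap and 29.6% higher. The median change of the 9 genes was -0.47 on the log2(FPKM + 1) scale, against -0.08 over all tested genes. Both beta globins fell, Hbb-bt by 2.12-fold and Hbb-bs by 1.42-fold. Of the alpha globins, Hba-a1 fell by 1.17-fold and Hba-a2 did not pass. The 5 enzymes fell by 0.25 to 0.55 on the log2 scale.

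**Figure D1:**
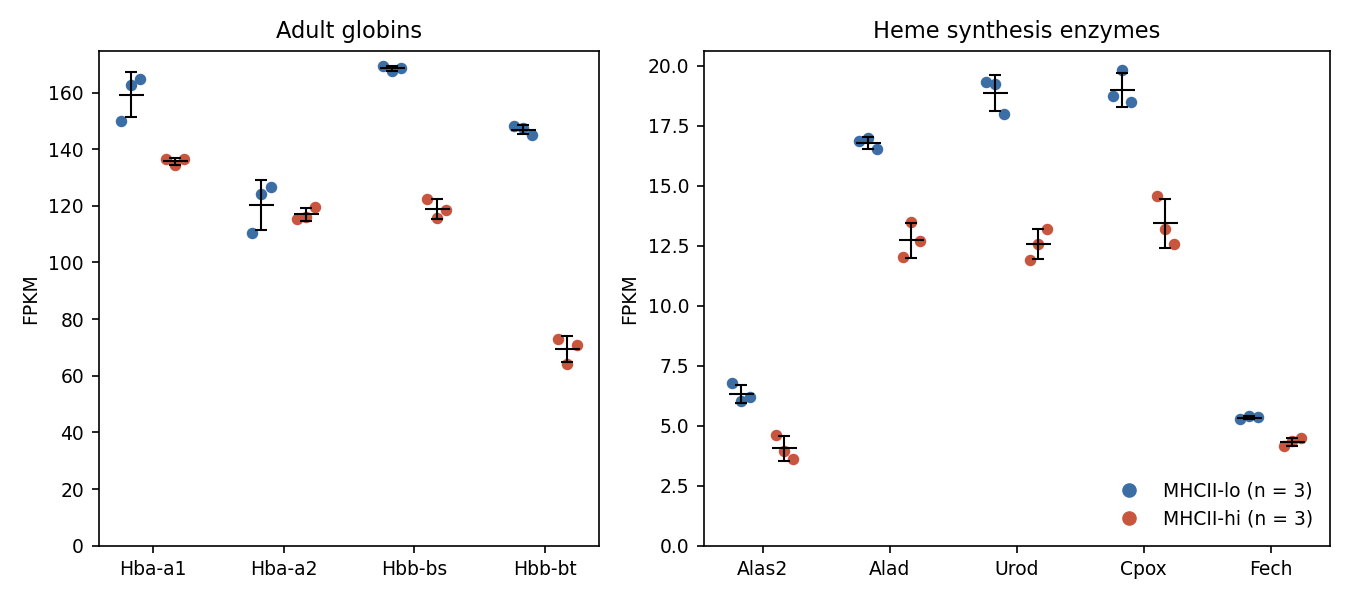
Each point is the FPKM of 1 library for the 4 globins (left) and the 5 heme synthesis enzymes (right), with MHCII-lo in blue and MHCII-hi in red, 3 libraries each; black bars are mean ± SD. The groups are apart for every gene except Hba-a2, and the gap is widest for Hbb-bt.

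Hbb-bt, an adult beta globin gene (ENSMUSG00000073940.3; GRCm38 chromosome 7, 103812524 to 103813996, minus strand), moved most. It stood at 148, 147 and 145 FPKM in the MHCII-lo libraries and 73.1, 64.2 and 71.0 FPKM in the MHCII-hi libraries. The groups were far apart, the highest MHCII-hi library at 73.1 FPKM and the lowest MHCII-lo library at 145 FPKM. The change was -1.07 ± 0.05 (SE), with a limma adjusted p of 2.50e-06. Hbb-bt ranked 132 among all decreases, and 1.46% of tested genes fell by 1 or more on this scale while 3.69% rose by as much.

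Hbb-bs, the other adult beta globin gene (ENSMUSG00000052305.6; chromosome 7, 103826534 to 103828096, minus strand), fell less. Its levels were 170, 168 and 169 FPKM in MHCII-lo and 122, 116 and 119 FPKM in MHCII-hi, with no overlap between groups. The change was -0.50 ± 0.02 (SE), limma adjusted p = 3.23e-06. The ratio of Hbb-bt to Hbb-bs within a library was 0.874, 0.880 and 0.861 in MHCII-lo and 0.597, 0.555 and 0.598 in MHCII-hi. The deposited beta values thus did not fall in proportion (exact two-sided permutation p = 0.1, the smallest that 3 against 3 libraries allow). After Benjamini-Hochberg adjustment that permutation p was 0.108. The division of reads shared by the pair is unknown, so this ratio is uncertain.

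Hba-a1, an adult alpha globin gene (ENSMUSG00000069919.7; chromosome 11, 32283511 to 32284465, plus strand), stood at 150, 163 and 165 FPKM in MHCII-lo. In MHCII-hi it stood at 136, 134 and 136 FPKM, below every MHCII-lo library. Its change was -0.23 ± 0.04 (SE), limma adjusted p = 0.00125, and this call was lost when each library's trend on transcript length was removed without immunoglobulin segments (-0.02, adjusted p = 0.628).

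Hba-a2, its near-identical copy (ENSMUSG00000069917.7; chromosome 11, 32296489 to 32297298, plus strand), was the 1 gene that did not pass. It stood at 110, 124 and 127 FPKM in MHCII-lo and 115, 116 and 120 FPKM in MHCII-hi, and the groups overlapped. The change was -0.04 ± 0.05 (SE), limma adjusted p = 0.542. The ratio of Hba-a2 to Hba-a1 was 0.735 to 0.769 in MHCII-lo and 0.845 to 0.878 in MHCII-hi. The MHCII-lo library of replicate 1 lay lowest in its group for both alpha genes. Without that library Hba-a2 was called lower (-0.10, limma adjusted p = 0.0153). Its direction flipped with the scaling, to 0.06 with median-of-ratios scaling and to 0.18 with the length trend removed without immunoglobulin segments, where it was called higher (limma adjusted p = 0.0294).

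The alpha and beta sums rest less on the division of reads within a pair. Summed alpha globin was 260, 287 and 292 FPKM in MHCII-lo and 252, 250 and 256 FPKM in MHCII-hi. Summed beta globin was 318, 315 and 314 FPKM in MHCII-lo and 196, 180 and 190 FPKM in MHCII-hi, 1.68-fold lower. The beta gap was many times the spread between libraries, and the alpha gap was narrow, with the lowest MHCII-lo library at 260 FPKM and the highest MHCII-hi library at 256 FPKM.

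Within a library, the alpha to beta globin ratio was 0.820, 0.911 and 0.929 in MHCII-lo. In MHCII-hi it was 1.29, 1.39 and 1.35. In FPKM, all 3 MHCII-lo libraries thus had more beta than alpha globin, and all 3 MHCII-hi libraries more alpha than beta. The side of 1 on which a ratio falls also depends on the transcript lengths used for FPKM. The difference between groups depends on them less. The means were 0.887 ± 0.0587 (SD) and 1.34 ± 0.0529 (SD). An exact two-sided permutation test over libraries gave p = 0.1, the smallest that 3 against 3 libraries allow, and 0.108 after Benjamini-Hochberg adjustment over the 13 sums, shares and ratios computed. A ratio within a library does not change when the whole library is rescaled, and its log2 difference was 0.60 as computed and 0.54 to 0.63 over the alternatives, on sums plus a pseudocount.

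**Figure D2:**
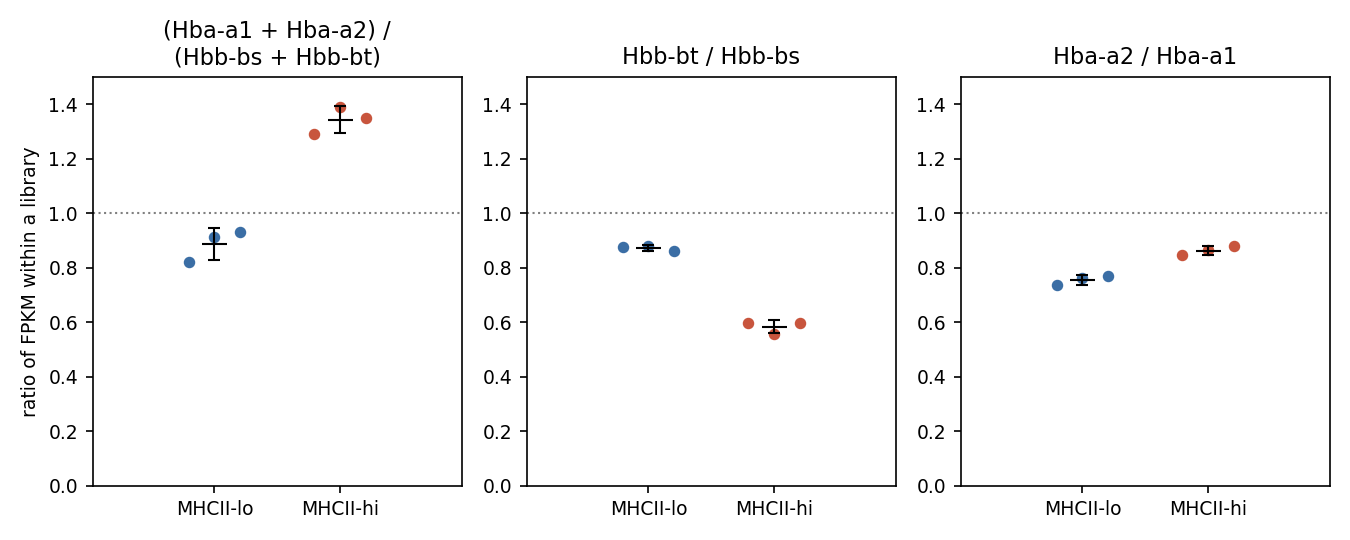
Ratios of FPKM within each library: summed alpha over summed beta globin (left), Hbb-bt over Hbb-bs (middle) and Hba-a2 over Hba-a1 (right), 1 point per library with mean ± SD; the dotted line marks a ratio of 1. The alpha to beta ratio lies below 1 in MHCII-lo and above 1 in MHCII-hi, and the Hbb-bt to Hbb-bs ratio drops from 0.872 to 0.584.

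All 4 globins together summed to 595 ± 14.8 (SD) FPKM in MHCII-lo and 441 ± 9.35 (SD) FPKM in MHCII-hi. They made up 0.194% and 0.132% of the summed FPKM of a library. The exact permutation p was 0.1, again the smallest possible. The erythroid marker sum, given above, was 1.49-fold lower in MHCII-hi. Per unit of that marker sum, alpha globin stood at 0.407 ± 0.0248 (SD) in MHCII-lo and 0.549 ± 0.0033 (SD) in MHCII-hi. Beta globin stood at 0.459 ± 0.0027 (SD) and 0.409 ± 0.0176 (SD). Against these markers, alpha globin was thus higher in all 3 MHCII-hi libraries than in any MHCII-lo library, and beta globin lower (exact permutation p = 0.1 for each, the smallest possible).

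Other globin genes were near 0. Of 13 listed globins and partners, 6 were among the rows, and none reached a mean of 1 FPKM. Hbb-y, the embryonic beta-like globin, had 0.10 FPKM in 1 library and was listed at 0 in the other 5. The theta-like Hbq1b, which lies between the alpha genes, had 0.12 to 0.71 FPKM in MHCII-lo and 0.25 to 0.44 FPKM in MHCII-hi.

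Genes beside the globins were compared by position, within 100 kb of each pair. Neither of the first 2 genes named here passed the test. Nprl3, whose introns hold the distant enhancers of the alpha globins, had means of 1.90 and 1.88 FPKM (limma adjusted p = 0.890). Mpg, a DNA repair glycosylase, had means of 1.47 and 1.21 FPKM (limma adjusted p = 0.226). Snrnp25, a spliceosome subunit, and Sh3pxd2b, an adaptor of cell invasion structures, fell by 0.51 and 0.32 on the log2 scale. The call of Snrnp25 (limma adjusted p = 0.0300) was lost without any 1 library other than MHCII-hi replicate 3 (limma adjusted p = 0.0581 to 0.0875). Dnajc19-ps, a processed pseudogene near the beta pair, had means of 4.22 and 2.20 FPKM (limma adjusted p = 0.0361), a call lost without any 1 MHCII-lo library or without MHCII-hi replicate 3 (limma adjusted p = 0.0539 to 0.106). The olfactory receptor genes beside the beta globins had means of at most 0.01 FPKM.

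The enzymes are given in the order of the pathway. Alas2 makes aminolevulinate from glycine and succinyl-CoA in red cell precursors (chromosome X, 150547375 to 150570638, plus strand). It stood at 6.76, 6.04 and 6.19 FPKM in MHCII-lo and 4.61, 3.93 and 3.62 FPKM in MHCII-hi, a change of -0.54 ± 0.08 (SE; limma adjusted p = 0.000928). Its spread in MHCII-hi was the widest of the 9 genes, with a coefficient of variation of 12.5%, and the groups still did not overlap. Apex2, annotated on the opposite strand across Alas2, stood at 1.13 and 1.19 FPKM.

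Alas1, the housekeeping form, was the more abundant in every library. It stood at 29.8 to 30.4 FPKM in MHCII-lo and 24.9 to 25.1 FPKM in MHCII-hi. The ratio of Alas2 to Alas1 was 0.210 ± 0.0147 (SD) in MHCII-lo and 0.162 ± 0.0201 (SD) in MHCII-hi, lower in all 3 MHCII-hi libraries than in any MHCII-lo library. Both forms fell, Alas1 by 0.26 on the log2 scale, and the ratio gave an exact permutation p of 0.1, the smallest possible.

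Alad joins pairs of aminolevulinate molecules into porphobilinogen (chromosome 4, 62509169 to 62519918, minus strand). It stood at 16.9, 16.98 and 16.5 FPKM in MHCII-lo and 12.01, 13.5 and 12.7 FPKM in MHCII-hi, a change of -0.37 ± 0.04 (SE; limma adjusted p = 0.000276). Uros, which closes the porphyrin ring, fell as well. It went from 7.39 ± 0.43 (SD) to 4.49 ± 0.277 (SD) FPKM, and Bccip, which overlaps it on the opposite strand by 740 bases, went from 28.1 to 15.2 FPKM.

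Urod removes carboxyl groups from the ring (chromosome 4, 116989965 to 116994413, minus strand). It fell from 19.3, 19.2 and 18.0 FPKM in MHCII-lo to 11.9, 12.6 and 13.2 FPKM in MHCII-hi (-0.55 ± 0.05 SE, limma adjusted p = 5.58e-05). Urod had the larger change on this scale and Alas2, at 1.56-fold, the larger fold of mean FPKM, so they could not be ordered. Cpox, the next enzyme, at the mitochondrial intermembrane space (chromosome 16, 58670292 to 58717636, plus strand), went from 18.7, 19.8 and 18.5 FPKM to 14.6, 13.2 and 12.6 FPKM. Its change was -0.47 ± 0.06 (SE), limma adjusted p = 0.000311.

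Ppox, the penultimate enzyme, went the other way. It stood at 10.6, 11.4 and 10.6 FPKM in MHCII-lo and 13.5, 12.8 and 13.1 FPKM in MHCII-hi, a change of 0.25 ± 0.04 (SE; limma adjusted p = 0.00114). B4galt3, annotated on the opposite strand with an overlap of 907 bases, went from 5.03 to 7.69 FPKM, and its part in the Ppox value was not tested. Fech, which inserts iron into protoporphyrin to finish heme (chromosome 18, 64452914 to 64490251, minus strand), had the smallest change of the 5 enzymes. It stood at 5.26, 5.39 and 5.35 FPKM in MHCII-lo and 4.15, 4.36 and 4.49 FPKM in MHCII-hi (-0.25 ± 0.04 SE, limma adjusted p = 0.00171). Ppox was thus the 1 enzyme described here that was higher.

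**Figure D3:**
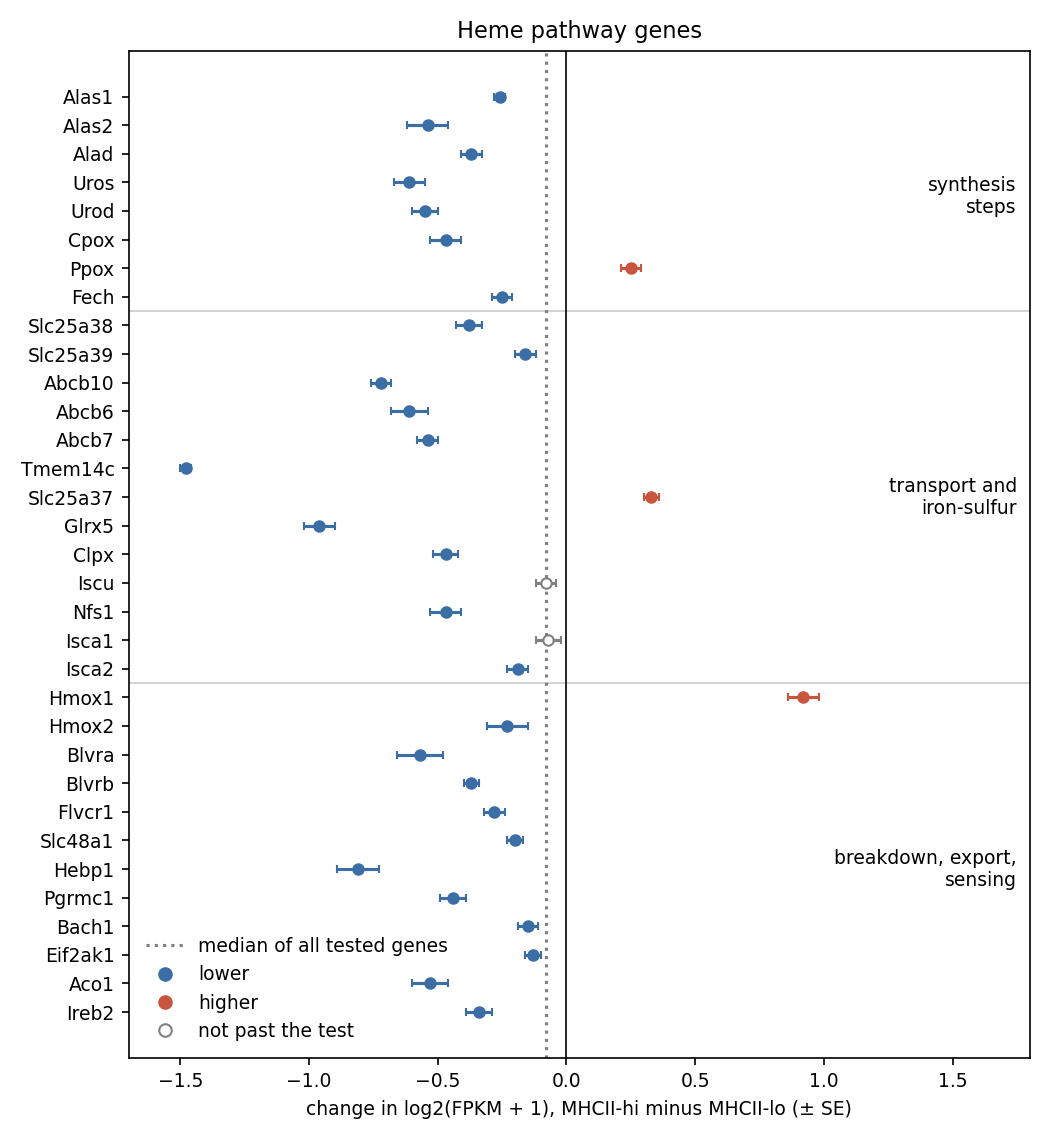
Change in log2(FPKM + 1), MHCII-hi minus MHCII-lo, with SE, for synthesis enzymes in pathway order (top), carriers and iron-sulfur genes (middle) and breakdown, export and sensing genes (bottom); blue is lower, red higher and open grey not past limma's adjusted p of 0.05. Only Ppox, Slc25a37 and Hmox1 lie on the right, and Tmem14c lies furthest to the left.

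The 5 enzymes summed to 66.3 ± 1.57 (SD) FPKM in MHCII-lo and 47.1 ± 0.49 (SD) FPKM in MHCII-hi, 1.41-fold lower (exact permutation p = 0.1, the smallest possible). Their ratio to the globin sum was 0.111 ± 0.0046 (SD) and 0.107 ± 0.00315 (SD), and the groups overlapped (exact permutation p = 0.2). Per unit of the erythroid marker sum they stood at 0.0965 ± 0.00203 (SD) and 0.102 ± 0.00169 (SD), higher in all 3 MHCII-hi libraries than in any MHCII-lo library (exact permutation p = 0.1, the smallest possible), 1.06-fold in the means.

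The levels of the 9 genes fell into 3 tiers, set by FPKM. In MHCII-lo the order at the top was Hbb-bs, Hba-a1, Hbb-bt and Hba-a2, at means of 169, 159, 147 and 120 FPKM. In MHCII-hi it was Hba-a1, Hbb-bs, Hba-a2 and Hbb-bt, at 136, 119, 117 and 69.4 FPKM. Hbb-bs and Hba-a2 overlapped in MHCII-hi and could not be ordered. Cpox, Urod and Alad had group means between 12.6 and 19.0 FPKM, Cpox and Urod overlapping in both. Alas2 and Fech were lowest, with Alas2 above Fech in MHCII-lo, at 6.33 and 5.33 FPKM, and overlapping with it in MHCII-hi, at 4.05 and 4.33 FPKM.

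**Figure D4:**
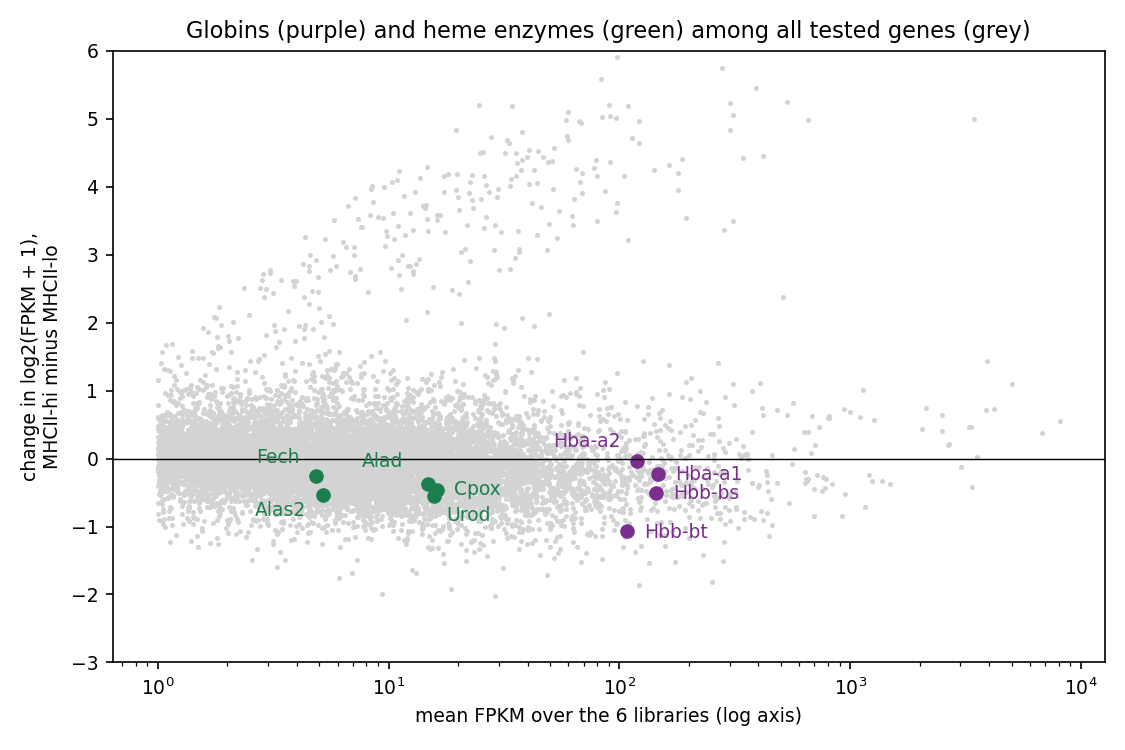
Each grey point is 1 of the 12295 tested genes, by mean FPKM over the 6 libraries (log axis) and change in log2(FPKM + 1), MHCII-hi minus MHCII-lo; globins are purple and heme enzymes green. The 9 genes lie below 0, within the cloud of genes of like level, with Hbb-bt near its lower edge.

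The other genes of heme synthesis, 18 in all, are its remaining enzymes, carriers and iron-sulfur assembly. Of these, 14 fell, 2 rose and 2 did not pass, beside 40.5% of all tested genes lower and 27.2% higher. Their median log2 change was -0.43. Tmem14c, which carries the heme precursor into the mitochondrial matrix, stood at 123, 125 and 124 FPKM in MHCII-lo and 45.2, 43.0 and 43.4 FPKM in MHCII-hi. This was 2.83-fold lower, a larger change than that of any of the 9 genes (limma adjusted p = 4.66e-08). Glrx5, which hands on iron-sulfur clusters, fell from 11.2 ± 0.331 (SD) to 5.28 ± 0.467 (SD) FPKM. Abcb10, a mitochondrial transporter needed for hemoglobin production, fell from 18.7 ± 0.79 (SD) to 10.9 ± 0.436 (SD) FPKM.

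Clpx, a chaperone that acts on the first enzyme, fell by 0.47, and Nfs1, which supplies sulfur for iron-sulfur clusters, by 0.47 on the log2 scale. Slc25a38, the glycine carrier that feeds the first step, fell from 11.0 ± 0.491 (SD) to 8.23 ± 0.42 (SD) FPKM. Slc25a37, or mitoferrin-1, which brings iron into the mitochondria of red cell precursors, rose from 18.8 ± 0.517 (SD) to 24.0 ± 0.304 (SD) FPKM (limma adjusted p = 7.04e-05). The iron-sulfur scaffold genes Iscu, at 14.9 and 14.1 FPKM, and Isca1, at 5.41 and 5.10 FPKM, had overlapping groups and missed the threshold. Without MHCII-hi replicate 3, Iscu was called lower (limma adjusted p = 0.0315).

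Among 12 tested genes of heme breakdown, export and sensing, 11 fell and 1 rose, beside 40.5% of all tested genes lower and 27.2% higher. Their median log2 change was -0.31. The gene that rose was Hmox1, the inducible heme oxygenase that opens the heme ring. It stood at 12.8, 14.1 and 15.5 FPKM in MHCII-lo and 28.1, 27.2 and 27.7 FPKM in MHCII-hi, 1.95-fold higher (0.92 ± 0.06 SE, limma adjusted p = 2.00e-05). Hmox2, the constitutive form, stood at 26.3 ± 1.83 (SD) and 22.2 ± 2.23 (SD) FPKM with overlapping groups. It passed narrowly (limma adjusted p = 0.0317) and lost its call under several alternatives, up to an adjusted p of 0.167. Leaving out MHCII-lo replicate 1 or 2, or MHCII-hi replicate 1 or 2, also ended it (limma adjusted p = 0.0646 to 0.0951).

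Hebp1, a heme-binding protein, fell from 6.34 ± 0.15 (SD) to 3.21 ± 0.431 (SD) FPKM. Blvra and Blvrb, the biliverdin reductases that act after heme oxygenase, fell by 0.57 and 0.37 on the log2 scale, and the heme exporter Flvcr1 by 0.28. Aco1 and Ireb2, the iron regulatory proteins, fell by 0.53 and 0.34. Bach1, the repressor that heme releases from its targets, Hmox1 among them, fell by 0.15, and Eif2ak1, the kinase that slows globin translation when heme is short, by 0.13. Both lost their calls with median-of-ratios scaling (limma adjusted p = 0.199 and 0.209).

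Of 20 tested genes of hemoproteins outside red cells and of heme A synthesis, 12 fell, 6 rose and 2 did not pass, beside 40.5% of all tested genes lower and 27.2% higher. Their median log2 change was -0.14, and with median-of-ratios scaling 9 were lower. Ptgs2, the inducible cyclooxygenase, rose from 8.35 ± 0.4 (SD) to 16.6 ± 0.575 (SD) FPKM, and the mitochondrially encoded mt-Cytb from 1944 ± 12.3 (SD) to 3044 ± 7.37 (SD) FPKM. The nuclear respiratory genes Sdhd and Cyc1 fell by 0.68 and 0.66 on the log2 scale.

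Of 13 tested regulators of the globin loci, 8 rose, 4 fell and 1 did not pass, with a median log2 change of 0.21. Of all tested genes, 27.2% were called higher and 40.5% lower. Klf1, the activator that binds the beta globin CACCC box, fell from 19.5 ± 0.694 (SD) to 13.2 ± 1.4 (SD) FPKM, and Gata1, Tal1 and Lmo2 also fell. Gata1, at 11.3 and 10.1 FPKM, changed by -0.15 ± 0.04 (SE; limma adjusted p = 0.0178). Its call was lost with median-of-ratios scaling (-0.06, limma adjusted p = 0.244) and without MHCII-lo replicate 1 or 2 or MHCII-hi replicate 1 (limma adjusted p = 0.0508 to 0.0589). Zfpm1, the GATA1 partner FOG1, rose from 12.5 ± 0.525 (SD) to 20.4 ± 1.43 (SD) FPKM, and Mafk, a small partner of NFE2, was 1.41-fold higher in MHCII-hi. Bcl11a, the repressor of embryonic and fetal globins, rose from 4.32 ± 0.0451 (SD) to 6.19 ± 0.32 (SD) FPKM.

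Of the 23 erythroid markers, 20 fell, none rose and 3 did not pass, with a median log2 change of -0.51, beside -0.47 for the 9 genes. The shares over all tested genes were 40.5% lower and 27.2% higher. Rhd, of the Rh complex, fell from 19.2 ± 0.886 (SD) to 9.08 ± 0.176 (SD) FPKM. Its partner Rhag fell by 0.81 on the log2 scale, the adhesion molecule Icam4 by 0.77 and the carbonic anhydrase Car2 by 0.77. Epb42, Bpgm and Tmcc2 did not pass, Epb42 by little (limma adjusted p = 0.0504), and it was called lower without MHCII-hi replicate 1 or 2 (limma adjusted p = 0.0420 and 0.0486). The 2.12-fold change of Hbb-bt stands beside the 2.11-fold change of Rhd.

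Transcript length moved with the groups. Outside immunoglobulin segments, the 413 tested genes with transcripts of 500 to 750 bases, the range of the globins, had a median log2 change of -0.24, and 44.8% of them were called lower. The 2114 genes with 1250 to 2250 bases, the range of Alas2, Alad and Urod, had a median of -0.15, with 47.4% called lower. The 5853 genes of 3000 bases or more, the range of Cpox and Fech, had a median of -0.03, with 37% called lower. The share called lower was thus not highest in the range of the globins. The alpha globins, with transcripts of 699 and 554 bases, changed by about as much as or less than the median of their length range, and Hbb-bt and Hbb-bs by more.

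**Figure D5:**
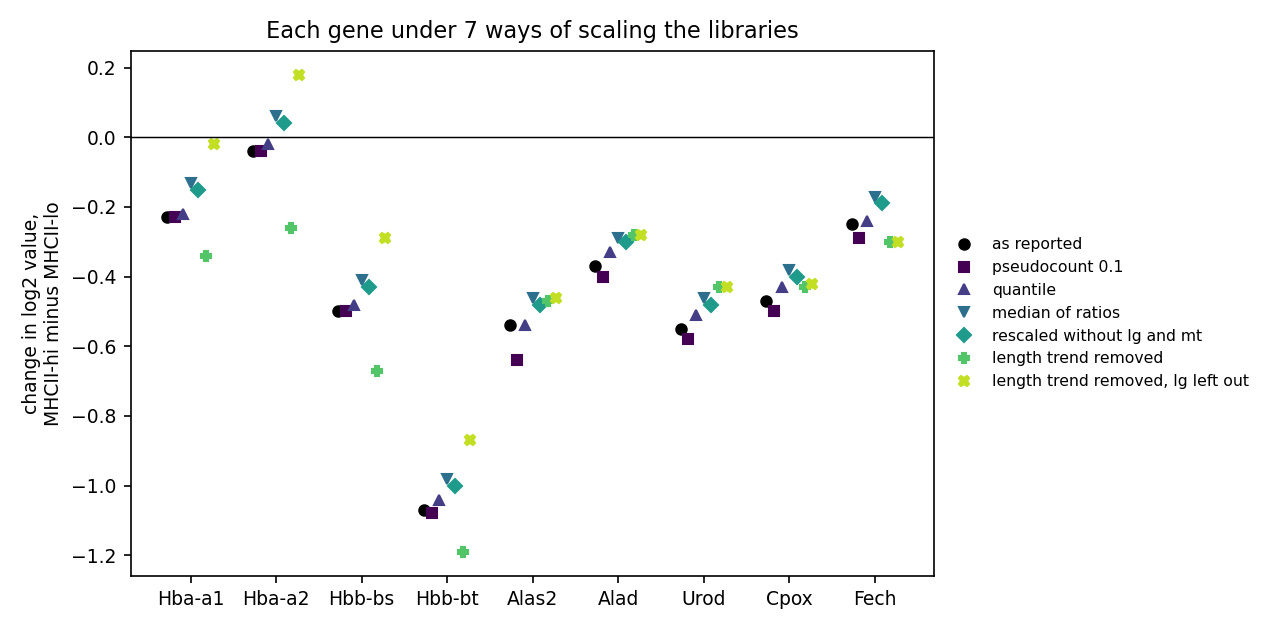
Change of each of the 9 genes, MHCII-hi minus MHCII-lo on the log2 scale, with the values as reported (black) and under 6 alternatives of pseudocount, scaling or length correction (colours). Hbb-bs, Hbb-bt and the 5 enzymes stay below 0 under each setting drawn, Hba-a1 comes close to 0 and Hba-a2 lies on either side of it.

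The genes most like Hba-a1 and Cpox, the globin and the enzyme with the highest mean over all 6 libraries, were named by Pearson's r of log2(FPKM + 1) over the 6 libraries, as a description. For Hba-a1 these were Marchf5, Slc39a8, Clasp2, Arhgap26 and Akr1b3, with r from 0.9950 to 0.9988. For Cpox they were Il1rl2, Dync1li2, Mettl6, Vti1b and Cope, with r from 0.9968 to 0.9984. Hba-a1 and Cpox lead by little, at 147 FPKM beside 144 for Hbb-bs and 16.2 FPKM beside 15.7 for Urod. With groups this far apart a high r is common, and 647 and 1888 tested genes had an r above 0.95 with Hba-a1 and Cpox. None of the 9 genes was among these nearest genes.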

How the data were processed

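Per the labels' protocols, RNA of sorted cells was made into stranded poly(A) libraries. The submitters' processing notes name fastp, HISAT2, StringTie and the builds GRCm38 and mm10; the sources used here do not give versions or the treatment of shared reads. The authors deposited 1 value for each gene in each library, taken as FPKM from totals of 305934 to 333530 per library. Low values showed no steps of whole reads, so the depth is unknown and no interval from counts is given.

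Of 70 extra rows with a repeated symbol, the row with the higher mean kept the symbol. GENCODE M21 matched 96.4% of rows to 1 gene. Genes averaging 1 FPKM or more were tested on log2(FPKM + 1) in limma 3.58.1 (R 4.3.3; two-sided, with a trend of variance on level; threshold 0.05 after Benjamini-Hochberg adjustment), an approach tested on simulated data. Such fold changes understate those of low genes. The simulation used independent noise with few genes changed. It could not test a shift shared by many genes, or whether the libraries are separate replicates. Folds are ratios of mean FPKM. Sums and ratios had exact permutation tests over 20 assignments. Transcripts were aligned with Biopython 1.88. No set test was run.

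The 9 genes and all lists were chosen with earlier results of these data known. All genes of the heme lists could be named, up to 4 of each larger list by size of change, neighbours by position and other genes to complete a count. Genes counted in a list but not named are not reported here. Alternatives numbered 17, with 1 added after seeing the data.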

Additional observations from a re-analysis of the deposited data

How the results depend on the processing

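The count of 8 genes lower was 7 to 9 under the alternatives, and Hbb-bs, Hbb-bt and the 5 enzymes kept their direction and call under every alternative in which they were tested; Fech fell below a minimum of 5 FPKM. With each library's length trend removed without immunoglobulin segments, an alternative chosen after seeing the data, the count of genes higher was 1, which was Hba-a2 at 0.18. Hba-a2 also changed sign with median-of-ratios scaling (0.06), with rescaling after removal of immunoglobulin and mitochondrial genes (0.04) and without MHCII-lo replicate 3, its range over left-out libraries being -0.10 to 0.00. With all genes in the length trend it was called lower (-0.26, limma adjusted p = 0.00784).

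The log2 difference of the summed globin FPKM, -0.43, was -0.34 with median-of-ratios scaling, -0.36 after the rescaling, -0.59 with the length trend removed and -0.22 with that trend fitted without immunoglobulin segments. That of the summed heme enzyme FPKM, -0.48, was -0.39, -0.41, -0.41 and -0.40 in the same order and -0.45 with quantile normalization. Iscu changed sign with median-of-ratios scaling (0.01) and both length corrections (0.05 and 0.06), and Isca1 with median-of-ratios scaling (0.01). Nprl3 also changed sign with median-of-ratios scaling (0.05), the rescaling (0.04) and the length corrections (0.02 and 0.03), and over left-out libraries (-0.03 to 0.01), as did Bpgm (-0.06 to 0.08). For the 51 other genes followed, 846 of 907 values kept direction and side of the threshold. The causes were not tested. With a minimum of 5 FPKM, which leaves fewer genes to test, 2210 genes were higher against 3348.

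With the replicate number as a block, the 9 genes kept 8 calls lower, the list counts changed by at most 2, the summed globin FPKM and summed heme enzyme FPKM differed by -0.43 and -0.48, and Hmox2 and Gata1 lost their calls (limma adjusted p = 0.0629 and 0.0516). The numbers are not known to pair libraries: deviations of same-numbered libraries correlated at 0.0626, 0.0019 and 0.0804, and not every library correlated best with its own number. The pseudocount, filter and variance settings do not apply to the sums where no test across genes is made.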
